A study of Homo sapiens with 12 samples.

Results

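The LDL receptor family is a group of cell-surface and sorting receptors that bind lipoproteins, proteases, matrix proteins and signalling ligands and carry them into or through the cell. The 8 genes VLDLR, LRP8, LRP1, LRP5, LRP6, LRP10, LRP12 and SORL1 were taken by symbol from the 62757 rows of the expression table, and each matched 1 row. Expression was measured by RNA sequencing in U87MG cells, a human line derived from a glioblastoma. Cells were exposed for 72 h to compound 1 at 30 µM, compound 4 at 10 µM, compound 5 at 5 µM or vehicle, with 3 biological replicates in each of the 4 groups. The title of the series names taxodione and paclitaxel, but the labels do not tie either name to a number, and the compounds were given at different doses. All groups came from the same line, so the values describe 1 cell line.

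Members of the family share cysteine-rich ligand-binding repeats and a membrane-spanning segment, and most cycle between the surface and endosomes. LRP1 clears many ligands by endocytosis, VLDLR and LRP8 also pass on the signal of reelin, and LRP5 and LRP6 are coreceptors of Wnt proteins. SORL1, which also belongs to the VPS10 sorting receptors, and LRP10 act mainly in traffic between the Golgi and endosomes. In brain tumours and in the brain these receptors are best known for matrix and protease turnover, neuronal migration and lipid supply.

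Across the family, LRP1 rose with all 3 compounds, LRP8 and LRP10 fell with compounds 4 and 5, and VLDLR, LRP12, LRP6 and LRP5 did not pass against vehicle with any compound. SORL1 was close to undetected. Values are rlog values (regularized log, log2 units), which shrink each gene towards its own mean, so differences of genes with few reads are understated. Of the 8 genes, 7 reached the mean rlog of 3 required for testing, and a gene was called when limma gave it an adjusted p under 0.05 over 15524 genes. The depth of the libraries is unknown, because no counts were given.

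The sequences before the start sites of the called members LRP1, LRP8 and LRP10 are printed here because these are the genes that moved together or apart. Each is the 250 bases before the RefSeq start, on GRCh38.p14, read in the direction of the gene. Capitals mark matches on either strand to the GC box (letters GGGCGG), the CCAAT box (letters CCAAT), the TATA box (letters TATAAA), the E-box (letters CACGTG) and the sterol regulatory element (letters TCACNCCAC), and no matches overlapped in these stretches. LRP1 lies on the plus strand at chr12:57128233-57128482, LRP8 on the minus strand at chr1:53328071-53328320 and LRP10 on the plus strand at chr14:22871490-22871739.
LRP1: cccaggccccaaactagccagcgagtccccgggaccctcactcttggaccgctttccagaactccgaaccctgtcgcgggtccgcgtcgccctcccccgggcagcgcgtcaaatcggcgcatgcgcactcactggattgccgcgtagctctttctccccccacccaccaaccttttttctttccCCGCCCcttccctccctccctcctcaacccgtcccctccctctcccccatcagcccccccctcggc
LRP8: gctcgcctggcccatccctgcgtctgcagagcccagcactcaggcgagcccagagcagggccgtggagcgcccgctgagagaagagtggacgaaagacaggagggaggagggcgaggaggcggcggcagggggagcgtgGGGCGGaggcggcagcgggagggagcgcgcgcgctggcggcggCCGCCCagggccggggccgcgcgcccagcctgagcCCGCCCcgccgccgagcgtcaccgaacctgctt
LRP10: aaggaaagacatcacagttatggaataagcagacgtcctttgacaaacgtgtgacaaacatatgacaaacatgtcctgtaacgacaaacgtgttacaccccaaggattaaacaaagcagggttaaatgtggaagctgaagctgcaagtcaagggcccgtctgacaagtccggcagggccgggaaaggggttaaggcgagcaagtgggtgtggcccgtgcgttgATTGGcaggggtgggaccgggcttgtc

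The window of LRP1 held 1 GC box and that of LRP8 held 3, whereas that of LRP10 held 1 CCAAT box. The annotation used for gene coordinates, GENCODE 29, places the start of LRP10 at 22871613, inside the printed window. By that annotation part of the LRP10 window, with its CCAAT box, lies within the gene rather than before its start. Among 27305 promoters of the same length, 42.3% held a GC box and 33.0% a CCAAT box. The sterol regulatory element, present in 0.875% of promoters, had no match in the windows of LRP1, LRP8 and LRP10, nor did the TATA box (11.1%) or the E-box (6.49%). The GC content was 67.6% for LRP1, 77.2% for LRP8 and 51.6% for LRP10, against a median of 58.0%. Matches describe these letters only.

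Libraries were checked before the members were read. Replicate 1 of compound 5 lay farthest from its group, with a root mean square distance of 0.0915 to the mean of the others, against 0.0509 to 0.0725 for the other 11 libraries. Mesenchymal genes were strongly expressed, with 12-library ranges of 15.73 to 16.13 for VIM and 15.01 to 15.35 for CD44. Among glial and neural stem cell markers, GFAP (5.63 to 5.79), SOX2 (0.084 to 0.10) and S100B (0.76 to 0.80) were low. OLIG2 lay at 6.35 to 6.60 and NES at 10.35 to 10.71. Of 9 tested genes that mark the line, 1 rose and 0 fell with compound 1, 1 rose and 5 fell with compound 4, and 3 rose and 2 fell with compound 5. Beside these, 5.24% of all tested genes rose and 5.63% fell with compound 1, 19.0% and 21.6% with compound 4, and 15.9% and 19.2% with compound 5. FN1, a matrix gene, rose by 0.47 with compound 1 (limma adjusted p = 4.68e-06), and the matrix gene SPARC fell by 0.76 with compound 4 (limma adjusted p = 7.29e-14). Among 16 markers of neurons, leukocytes, epithelium and endothelium, 8 were below the threshold for testing, including PTPRC at 0.061 to 0.083 and CDH1 at -0.086 to -0.059. Others were expressed, among them SNAP25 at 8.89 to 9.61, KDR at 6.98 to 7.22 and KRT8 at 6.48 to 6.83. Of the 8 that were tested, 0 were called with compound 1, 2 rose and 2 fell with compound 4, and 2 rose and 1 fell with compound 5. The shares of all tested genes called in either direction were 10.9%, 40.6% and 35.1% with compounds 1, 4 and 5. SNAP25, a neuronal synapse gene, rose by 0.61 with compound 5 (limma adjusted p = 2.92e-11). From the same neuronal markers, SYP rose by 0.11 with compound 5 (limma adjusted p = 0.0434) and RBFOX3 was at -0.0022 (limma adjusted p = 0.961). The part of these markers in the results on the receptors was not tested. NEAT1 and MALAT1, noncoding RNAs kept in the nucleus, averaged 10.81 to 11.16 with compound 1, 10.97 to 11.08 with compound 4, 10.91 to 11.26 with compound 5 and 10.37 to 10.78 with vehicle.

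At baseline the receptors differed widely in level. Corrected for exon length, the mean vehicle level in log2 units per kb was 10.57 for LRP1, above 96.6% of tested genes, and 9.51 for LRP10, above 91.8%. LRP8 (7.54), LRP12 (7.21) and VLDLR (6.93) lay above 69.2%, 63.5% and 59.2% of tested genes. The Wnt coreceptors were unequal, with LRP6 at 5.84 and LRP5 at 0.48 per kb, above 42.2% and 0.881% of tested genes. SORL1 stood at -6.49 per kb.

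**Figure D1:**
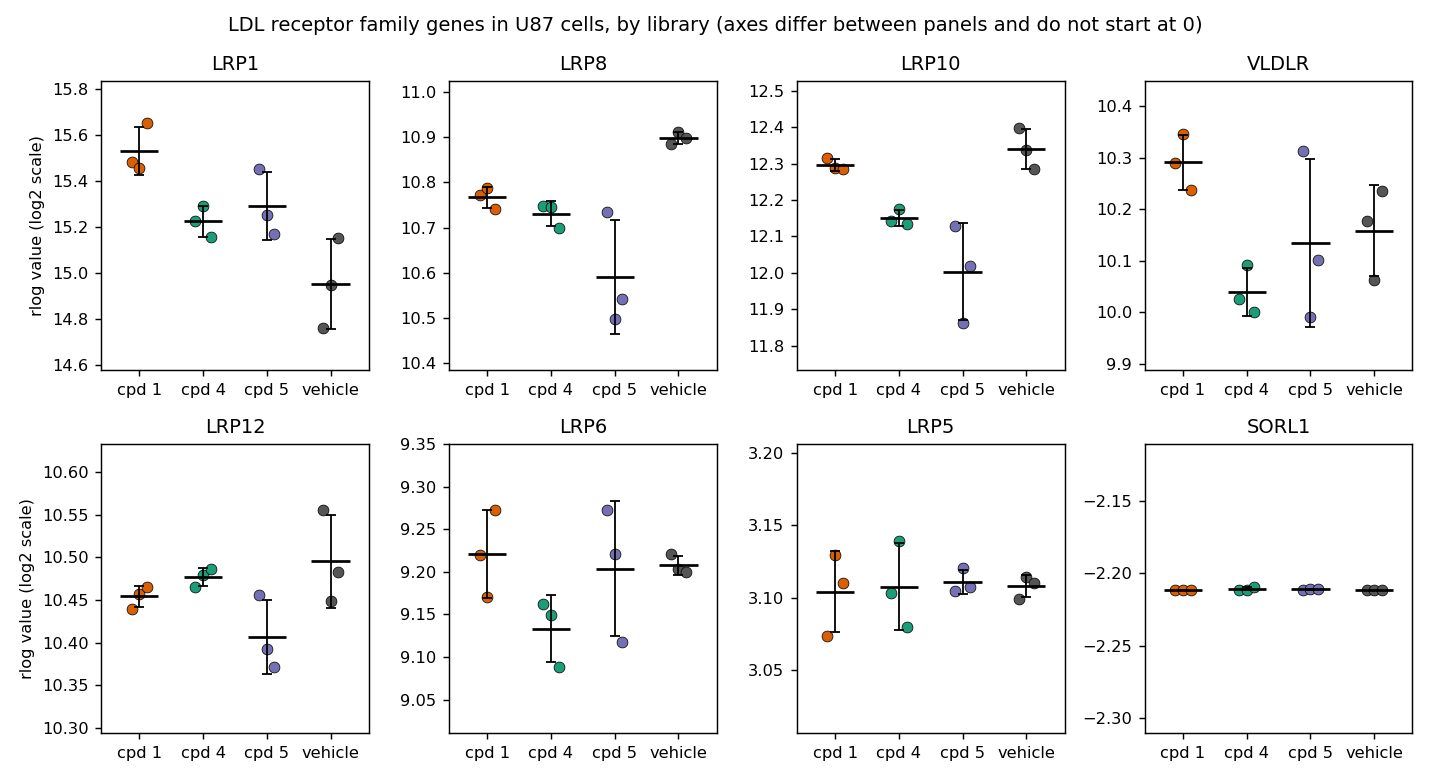
Rlog values (log2 scale, vertical axis) of the 8 genes in each library, with 3 points per group, a line at the group mean and bars of 1 SD. In the LRP1 panel all 9 treated libraries sit above the 3 vehicle libraries, the highest of which is 15.15. In the LRP10 panel the compound 4 and compound 5 libraries sit below the lowest vehicle library at 12.29.

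LRP1 encodes the large endocytic receptor that takes up protease-inhibitor complexes and matrix proteins (ENSG00000123384.14, GRCh38 chromosome 12, 57128493 to 57213351, plus strand, 89 merged exon blocks). Its rlog values were 15.48, 15.46 and 15.65 with compound 1, 15.23, 15.29 and 15.16 with compound 4, 15.45, 15.25 and 15.17 with compound 5, and 14.76, 14.95 and 15.15 with vehicle. Every treated library was above every vehicle library, but the gap was narrow, since replicate 3 of compound 4 and replicate 3 of vehicle lay at 15.16 and 15.15. LRP1 rose by 0.58 on the log2 scale with compound 1, a 1.49-fold difference on the rlog scale (SE 0.070, 95% interval 0.43 to 0.72, n = 3 per group, limma adjusted p = 3.52e-06). Of 15524 genes, 5 differed by more than LRP1 with compound 1, in either direction. It rose by 0.27 with compound 4 (SE 0.070, 95% interval 0.13 to 0.42, limma adjusted p = 0.00274) and by 0.34 with compound 5 (95% interval 0.19 to 0.48, limma adjusted p = 4.29e-04). These comparisons share their vehicle libraries. In bulk RNA, a change in the number of cells that express a gene and a change per cell cannot be told apart.

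The calls of LRP1 with compounds 4 and 5 were lost in some alternatives. Without vehicle replicate 1, the lowest library, the compound 4 difference was 0.18 (limma adjusted p = 0.0506). The compound 4 call was also lost with no filter on the mean (limma adjusted p = 0.0534) and with robust eBayes (limma adjusted p = 0.0784). Quantile normalization gave 0.19 with compound 4 (limma adjusted p = 0.0916) and 0.22 with compound 5 (limma adjusted p = 0.0522). Without replicate 1 of compound 5 the compound 5 difference was 0.26 (limma adjusted p = 0.00234). The rise with compound 1 passed in each of 23 alternatives, at 0.48 to 0.67.

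LRP8 encodes a receptor for reelin, a secreted guidance protein of the developing brain (ENSG00000157193.18, GRCh38 chromosome 1, 53242364 to 53328070, minus strand). Its values were 10.77, 10.79 and 10.74 with compound 1, 10.75, 10.75 and 10.70 with compound 4, 10.73, 10.50 and 10.54 with compound 5, and 10.89, 10.91 and 10.90 with vehicle. All 9 treated libraries lay below the 3 vehicle libraries, which agreed within an SD of 0.013. LRP8 fell by 0.31 with compound 5 (SE 0.045, 95% interval -0.40 to -0.22, 0.808-fold, limma adjusted p = 5.14e-06) and by 0.17 with compound 4 (95% interval -0.26 to -0.076, limma adjusted p = 0.0036). With compound 1 it stood 0.13 below vehicle, which did not pass (difference -0.13, 95% interval -0.22 to -0.040, limma adjusted p = 0.0568). Within compound 5, replicate 1 was the highest at 10.73, and without it the difference was -0.38 (limma adjusted p = 2.07e-09). The compound 1 difference passed without replicate 1 of compound 5 (limma adjusted p = 0.00585) or replicate 2 of compound 5 (limma adjusted p = 0.0413). Those libraries enter this comparison only through the spread that all groups share, and the difference stayed at -0.13. It also passed with only the 2 groups compared (limma adjusted p = 0.0128), but not with replicate numbers as a block (limma adjusted p = 0.051).

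LRP10 encodes a receptor that shuttles between the trans-Golgi network, endosomes and the plasma membrane (ENSG00000197324.9, GRCh38 chromosome 14, 22871613 to 22881580, plus strand, 7 merged exon blocks). Its values were 12.32, 12.29 and 12.28 with compound 1, 12.14, 12.17 and 12.14 with compound 4, 12.13, 11.86 and 12.02 with compound 5, and 12.40, 12.34 and 12.29 with vehicle. Libraries of compounds 4 and 5 did not overlap those of vehicle, whereas those of compound 1 did. LRP10 fell by 0.34 with compound 5 (SE 0.046, 95% interval -0.43 to -0.24, 0.792-fold, limma adjusted p = 2.13e-06) and by 0.19 with compound 4 (95% interval -0.28 to -0.095, limma adjusted p = 0.00162). With compound 1 the difference was -0.045 (95% interval -0.14 to 0.050, limma adjusted p = 0.597). Without replicate 1 of compound 5 the compound 5 difference was -0.40 (limma adjusted p = 4.76e-09). Of all tested genes, 3.48% differed from vehicle by more than LRP10 with compound 5.

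VLDLR encodes a receptor for triglyceride-rich lipoproteins and for reelin (ENSG00000147852.17, GRCh38 chromosome 9, 2621834 to 2660053, plus strand). Its values were 10.29, 10.35 and 10.24 with compound 1, 10.02, 10.09 and 10.00 with compound 4, 10.31, 9.99 and 10.10 with compound 5, and 10.18, 10.06 and 10.23 with vehicle. The compound 5 libraries were the most scattered, with an SD of 0.16, and spanned those of vehicle. VLDLR was 0.13 above vehicle with compound 1 (95% interval 0.017 to 0.25, limma adjusted p = 0.135), at -0.12 with compound 4 (95% interval -0.24 to -0.0034, limma adjusted p = 0.094) and at -0.023 with compound 5 (95% interval -0.14 to 0.093, limma adjusted p = 0.783). Each of these missed the threshold, while compounds 1 and 4 lay on opposite sides of vehicle. Both of those differences passed without replicate 1 of compound 5 (limma adjusted p = 0.0309 with compound 1 and 0.0228 with compound 4), and the compound 4 difference also without vehicle replicate 2 (-0.17, limma adjusted p = 0.0332). Leaving out the compound 5 library changed only the spread shared by all groups, and the 2 differences stayed at 0.13 and -0.12. With only the 2 groups compared, both passed (limma adjusted p = 0.0428 with compound 1 and 0.0157 with compound 4). Both passed with library weights too (limma adjusted p = 0.0207 and 0.0386). In most alternatives neither passed, among them replicate numbers as a block (limma adjusted p = 0.126 and 0.0876). Without replicate 1 of compound 5 the compound 5 difference was -0.11 (limma adjusted p = 0.0626).

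The remaining members varied little. LRP12, a transmembrane member of the family (ENSG00000147650.12, GRCh38 chromosome 8, 104489231 to 104589024, minus strand), ranged from 10.37 to 10.56 over the 12 libraries. Its largest difference from vehicle was -0.089 with compound 5 (95% interval -0.17 to -0.012, limma adjusted p = 0.068), with libraries that overlapped. This difference passed without replicate 1 of compound 5 (-0.11, limma adjusted p = 0.0202) or without vehicle replicate 2 (-0.11, limma adjusted p = 0.047). On all 12 libraries it passed with median centring (limma adjusted p = 0.0482), without a mean-variance trend (0.0461) and with library weights (0.0412). In most alternatives it did not pass, among them replicate numbers as a block (limma adjusted p = 0.0725). LRP6, a Wnt coreceptor (ENSG00000070018.9, GRCh38 chromosome 12, 12116025 to 12267012, minus strand), ranged from 9.09 to 9.27. It was at 0.013 with compound 1, -0.075 with compound 4 and -0.0042 with compound 5 against vehicle (limma adjusted p = 0.904, 0.181 and 0.952). The 3 compound 4 libraries of LRP6, at 9.16, 9.15 and 9.09, lay below those of vehicle at 9.22, 9.20 and 9.20.

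LRP5, the other Wnt coreceptor (ENSG00000162337.12, GRCh38 chromosome 11, 68312609 to 68449275, plus strand), had a mean of 3.11 or about 8.62 normalized counts, just above the threshold for testing. It ranged over 0.066 in all, and its differences from vehicle were -0.0036 with compound 1, -2.1e-04 with compound 4 and 0.0029 with compound 5. Shrinkage is strong at this level, so a change of LRP5 was not detectable rather than absent. SORL1, the sorting receptor of the amyloid precursor protein (ENSG00000137642.13, GRCh38 chromosome 11, 121452203 to 121633693, plus strand), stood between -2.2113 and -2.2093 in the 12 libraries, or about 0.216 normalized counts. It lay near the lowest value of the table, -2.2114, and was not tested.

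Counts of called members were set beside the share of all tested genes that passed. With compound 1, 1 of the 7 tested members rose and 0 fell in the limma test, beside 5.24% and 5.63% of all genes tested (10.9% in either direction). At an unadjusted p under 0.05, LRP8 was also lower and VLDLR also higher with compound 1. With compound 4, 1 rose and 2 fell, beside 19.0% and 21.6% (40.6% in either direction), and with compound 5, 1 rose and 2 fell, beside 15.9% and 19.2% (35.1% in either direction). The median member difference was -0.0036 with compound 1, -0.075 with compound 4 and -0.023 with compound 5, against medians of -0.0029, -0.0013 and -9.4e-04 over all tested genes. Libraries did not overlap those of vehicle for 3 members with compound 1, 4 with compound 4 and 3 with compound 5, beside 29.9%, 53.4% and 44.0% of tested genes. The share of tested members called was 14.3% with compound 1, 42.9% with compound 4 and 42.9% with compound 5, which with 7 genes is near that of all genes.

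**Figure D2:**
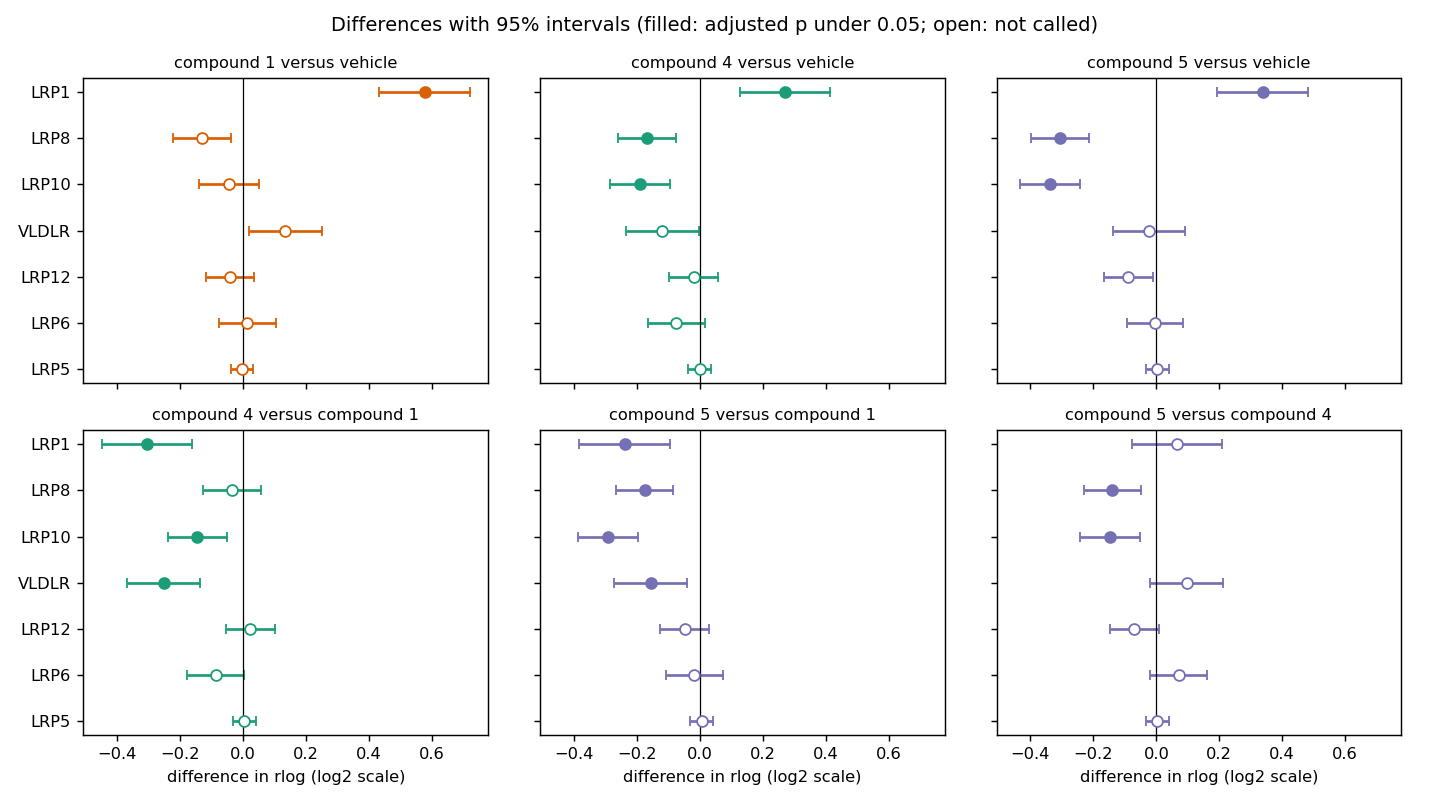
Differences in rlog (log2 scale, horizontal axis) of the 7 tested genes for each of 6 comparisons, with 95% intervals from limma; filled points have an adjusted p under 0.05. LRP1 is the only filled point right of 0 in the panels against vehicle, at 0.58, 0.27 and 0.34.

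The compounds were then set against each other at the doses used, which differ, in 3 pairs. LRP1 was lower with compound 4 than with compound 1 by 0.30 (difference -0.30, 95% interval -0.45 to -0.16, limma adjusted p = 8.57e-04) and lower with compound 5 than with compound 1 (-0.24, 95% interval -0.38 to -0.095, limma adjusted p = 0.0106). Between compounds 5 and 4 it differed by 0.066 (95% interval -0.078 to 0.21, limma adjusted p = 0.553). The order for LRP1 was therefore compound 1, compound 5, compound 4 and vehicle, in which compounds 5 and 4 did not differ beyond their spread, and without replicate 1 of compound 5 their difference was -0.015 (limma adjusted p = 0.894). The call between compounds 5 and 1 was lost without replicate 3 of compound 1 (-0.18, limma adjusted p = 0.078) or replicate 3 of compound 5 (-0.18, limma adjusted p = 0.0848). It was also lost with no filter (limma adjusted p = 0.12), with robust eBayes (0.14) and without a mean-variance trend (0.0525). With robust eBayes the call between compounds 4 and 1 was lost as well (limma adjusted p = 0.0505).

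LRP10 stood lower with compound 4 than with compound 1 (-0.14, 95% interval -0.24 to -0.050, limma adjusted p = 0.0126), lower with compound 5 than with compound 1 (-0.29, 95% interval -0.39 to -0.20, limma adjusted p = 2.23e-05) and lower with compound 5 than with compound 4 (-0.15, 95% interval -0.24 to -0.052, limma adjusted p = 0.0221). LRP8 was lower with compound 5 than with compound 1 (-0.18, 95% interval -0.27 to -0.083, limma adjusted p = 0.00369) and compound 4 (-0.14, limma adjusted p = 0.025), and compounds 4 and 1 differed by -0.036 (95% interval -0.13 to 0.056, limma adjusted p = 0.551). From low to high, the means of both genes were ordered compound 5, compound 4, compound 1 and vehicle. Compound 1 and vehicle did not pass the test for either gene, nor did compounds 4 and 1 for LRP8. The step between compounds 5 and 4 was fragile: without replicate 2 of compound 5 it was -0.077 for LRP10 (limma adjusted p = 0.247) and -0.092 for LRP8 (limma adjusted p = 0.192). It was also lost without replicate 1 of compound 4 (limma adjusted p = 0.0567 for LRP10 and 0.0886 for LRP8) or replicate 2 of compound 4 (0.0874 and 0.0845), and for LRP8 without replicate 3 of compound 5 (0.112). Without replicate 1 of compound 5 it was -0.21 for both genes (limma adjusted p = 2.26e-04 for LRP10 and 5.7e-05 for LRP8). For LRP10, the call between compounds 4 and 1 was lost without replicate 1 of compound 1 (-0.14, limma adjusted p = 0.0506). That call was also lost with no filter (limma adjusted p = 0.0833) and with quantile normalization (-0.10, limma adjusted p = 0.0696).

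VLDLR separated the compounds although it passed against vehicle with 0 of them. It was lower with compound 4 than with compound 1 (-0.25, 95% interval -0.37 to -0.14, limma adjusted p = 6.42e-04), with no overlap between the libraries, and this passed in each of 23 alternatives. It was also lower with compound 5 than with compound 1 (-0.16, 95% interval -0.27 to -0.041, limma adjusted p = 0.0366), but these libraries overlapped and the call held in 12 of 23 alternatives. Without replicate 2 of compound 5 that difference was -0.084 (limma adjusted p = 0.296), without replicate 3 it was -0.14 (0.111), and without replicates 1 or 2 of compound 1 it was -0.16 (0.0831) and -0.13 (0.134), whereas without replicate 1 of compound 5 it was -0.25 (1.68e-04). Between compounds 5 and 4 VLDLR differed by 0.096 (limma adjusted p = 0.243), and by 0.17 without replicate 2 of compound 5 (limma adjusted p = 0.0413). In all, 3 of 7 members were lower with compound 4 than with compound 1 (42.7% of tested genes called in either direction, 21.8% lower), 4 with compound 5 than with compound 1 (30.1% and 16.2%) and 2 with compound 5 than with compound 4 (22.0% and 11.4%). In these pairs 0 members were called higher by limma, and 0 at an unadjusted p under 0.05, beside 20.9%, 13.9% and 10.7% of tested genes called higher.

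The nuclear RNA NEAT1 rose with each compound, by 0.54 with compound 1, 0.84 with compound 4 and 0.72 with compound 5 (limma adjusted p = 2.21e-05, 7.62e-10 and 2.78e-08). MALAT1 rose by 0.42 with compound 5 (limma adjusted p = 0.00185), and was at 0.23 with compound 1 and 0.097 with compound 4, which did not pass (limma adjusted p = 0.149 and 0.473). With the mean of NEAT1 and MALAT1 in each library as a covariate, LRP1 kept its call with compound 1 (0.48, limma adjusted p = 0.0010). With that covariate LRP1 stood at 0.16 with compound 4 and 0.20 with compound 5, LRP8 at -0.057 and -0.17, and LRP10 at -0.056 and -0.17, and none of these 6 differences passed (limma adjusted p = 0.0873 to 0.55). With compound 1, LRP8 stood at -0.041 with the covariate (limma adjusted p = 0.791). VLDLR was at 0.24 with compound 1, which passed (limma adjusted p = 0.0465), and at 0.016 with compound 4 (limma adjusted p = 0.909), and its call between compounds 5 and 1 was lost (-0.10, limma adjusted p = 0.176). Differences of LRP1, LRP8 and LRP10 between compounds that had been called stayed called with the covariate, for example LRP10 between compounds 5 and 1 (-0.24, limma adjusted p = 9.77e-05). Within vehicle, the library lowest in the nuclear RNAs (10.37) was also lowest in LRP1, highest in LRP10 and lowest in LRP8 (10.89, against 10.91 and 10.90). The covariate and the treatment cannot be told apart where every treated library lies above every vehicle library.

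**Figure D3:**
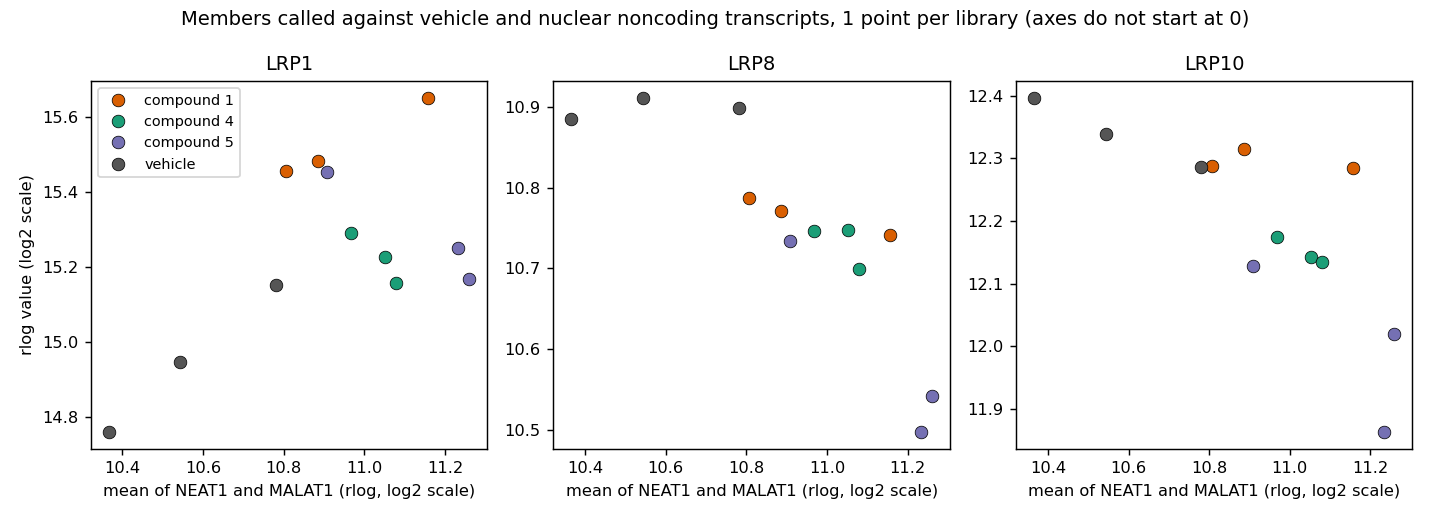
Rlog values of LRP1, LRP8 and LRP10 (log2 scale, vertical axis) against the mean rlog of NEAT1 and MALAT1 (horizontal axis), with 1 point per library and colours for the 4 groups. All 9 treated libraries lie right of the 3 vehicle libraries, whose highest value is 10.78, and the compound 1 libraries are the highest of LRP1 at similar nuclear RNA levels.

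The genes with the most similar pattern over the 12 libraries, each centred on its vehicle mean, were found for the 3 members called against vehicle. The nearest to LRP8 were MCC and CDK12, at root mean square distances of 0.0373 and 0.0409, beside 0.195 for the size of the LRP8 profile itself. The nearest to LRP10 were SLC7A1, an amino acid transporter, and GPAM, an enzyme of glycerolipid synthesis, at 0.034 and 0.038 beside 0.204. SLC7A1 differed from vehicle by -0.054 with compound 1, -0.19 with compound 4 and -0.34 with compound 5. The nearest to LRP1, MAPK8IP3 and TCIRG1, lay at 0.127 and 0.143 beside 0.377. MAPK8IP3 was 0.40 above vehicle with compound 1, 0.25 with compound 4 and 0.34 with compound 5.

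Relatives of the receptors were read from a separate list, beside 10.9%, 40.6% and 35.1% of all tested genes called with compounds 1, 4 and 5. Of 10 relatives outside the 8 genes, 4 were tested, and 0 were called with compound 1, 1 fell with compound 4 and 2 fell with compound 5 (medians 0.031, -0.051 and -0.11). LRP1B, the closest relative of LRP1, fell by 0.22 with compound 5 (7.57 ± 0.046 against 7.79 ± 0.044 in vehicle, SD, n = 3 each, limma adjusted p = 3.67e-04) and by 0.20 with compound 4 (limma adjusted p = 5.57e-04), opposite to LRP1 with these compounds. With compound 1 LRP1B stood 0.096 above vehicle, which did not pass (limma adjusted p = 0.173). LRP4, which binds agrin at the neuromuscular junction, fell by 0.20 with compound 5 (limma adjusted p = 0.00299). LRP5L, a partial copy of LRP5, was listed at 0 in every library. Among VPS10 relatives of SORL1, SORT1, which encodes sortilin, fell with compound 1 (-0.18, limma adjusted p = 0.00542), compound 4 (-0.15, limma adjusted p = 0.0049) and compound 5 (-0.12, limma adjusted p = 0.0265), and SORCS2 rose by 0.20 with compound 1 (limma adjusted p = 0.00331). The LDL receptor chaperone LRPAP1 fell by 0.14 with compound 4 (limma adjusted p = 0.00326), and MESD, the chaperone of LRP5 and LRP6, rose by 0.12 with compound 5 (limma adjusted p = 0.0161).

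Ligands of the receptors moved in both directions with compounds 4 and 5. Of all genes tested, 5.24% rose and 5.63% fell with compound 1, 19.0% and 21.6% with compound 4, and 15.9% and 19.2% with compound 5. Of 16 tested ligand genes, 4 rose and 0 fell with compound 1, 4 rose and 7 fell with compound 4, and 5 rose and 2 fell with compound 5 (medians 0.033, -0.087 and 0.065). PLAU, the urokinase gene, rose by 0.91 with compound 4 (12.97 ± 0.038 against 12.06 ± 0.058 in vehicle, SD, n = 3 each, limma adjusted p = 1.34e-15). The matrix gene THBS2 fell by 0.60 with compound 5 (limma adjusted p = 7.3e-11) and the growth factor gene PTN by 0.44 with compound 4 (limma adjusted p = 1.33e-09). RELN, the ligand of VLDLR and LRP8, and their adaptor DAB1 were below the threshold for testing. Downstream of them, 8 reelin pathway genes were tested: 0 rose and 1 fell with compound 1, 1 rose and 0 fell with compound 4, and 2 rose and 2 fell with compound 5 (medians -0.0092, 0.018 and -0.072). The kinase gene SRC rose by 0.29 with compound 4 (limma adjusted p = 2.98e-06) and RAPGEF1 fell by 0.21 with compound 5 (limma adjusted p = 1.51e-04).

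Among genes that carry and cut the receptors, more fell than rose with compounds 4 and 5. Beside these counts, 21.6% of all tested genes fell and 19.0% rose with compound 4, and 19.2% fell and 15.9% rose with compound 5. Of 26 genes of endocytosis, recycling and degradation, 0 rose and 1 fell with compound 1, 4 rose and 9 fell with compound 4, and 2 rose and 12 fell with compound 5 (medians -0.017, -0.0014 and -0.072). DAB2, an endocytic adaptor of the family, fell by 0.43 with compound 4 (limma adjusted p = 1.77e-09), and AP2B1, a subunit of the clathrin adaptor, by 0.31 with compound 5 (limma adjusted p = 2.09e-06). Of 10 genes for shedding and intramembrane cleavage, 1 rose and 1 fell with compound 1, 0 rose and 5 fell with compound 4, and 1 rose and 5 fell with compound 5 (medians -0.018, -0.10 and -0.083). The protease genes BACE1 (-0.40, limma adjusted p = 1.34e-07) and ADAM10 (-0.24, limma adjusted p = 4.81e-05) fell with compound 4, and ADAM17 fell by 0.26 with compound 5 (limma adjusted p = 2.8e-05). NCSTN, from the same list, rose by 0.20 with compound 1 (limma adjusted p = 6.45e-04).

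Partners of LRP5 and LRP6 changed in both directions with compounds 4 and 5. Among all tested genes, 10.9% were called in either direction with compound 1, 40.6% with compound 4 and 35.1% with compound 5, and the shares that fell were 5.63%, 21.6% and 19.2%. Of 22 tested Wnt ligands, frizzled receptors and coreceptor regulators, 2 rose and 0 fell with compound 1, 5 rose and 9 fell with compound 4, and 6 rose and 6 fell with compound 5 (medians -0.0018, -0.037 and 0.0054). With compound 4 the ligand genes WNT7B (0.67, limma adjusted p = 4.84e-10) and WNT5A (0.42, limma adjusted p = 3.14e-09) rose, while WNT5B (-0.52, limma adjusted p = 1.33e-10) and the receptor gene FZD2 (-0.38, limma adjusted p = 6.26e-07) fell. Of 12 cytoplasmic partners, 0 rose and 2 fell with compound 1, 1 rose and 6 fell with compound 4, and 0 rose and 7 fell with compound 5 (medians -0.059, -0.095 and -0.15), among them CSNK1A1, a kinase of beta-catenin (-0.42 with compound 5, limma adjusted p = 3.28e-08). Of 6 feedback targets, 0 were called with compound 1, 2 rose and 1 fell with compound 4, and 1 rose and 0 fell with compound 5 (medians -0.036, 0.015 and 0.032). TCF7 rose by 0.40 with compound 4 (limma adjusted p = 7.5e-09), whereas AXIN2, a broadly used target, was at -0.0030 (limma adjusted p = 0.957). For scale, all 13 sterol-regulated genes listed fell with compounds 4 and 5 (medians -1.30 and -0.80), and 7 fell and 0 rose with compound 1 (median -0.18).

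**Figure D4:**
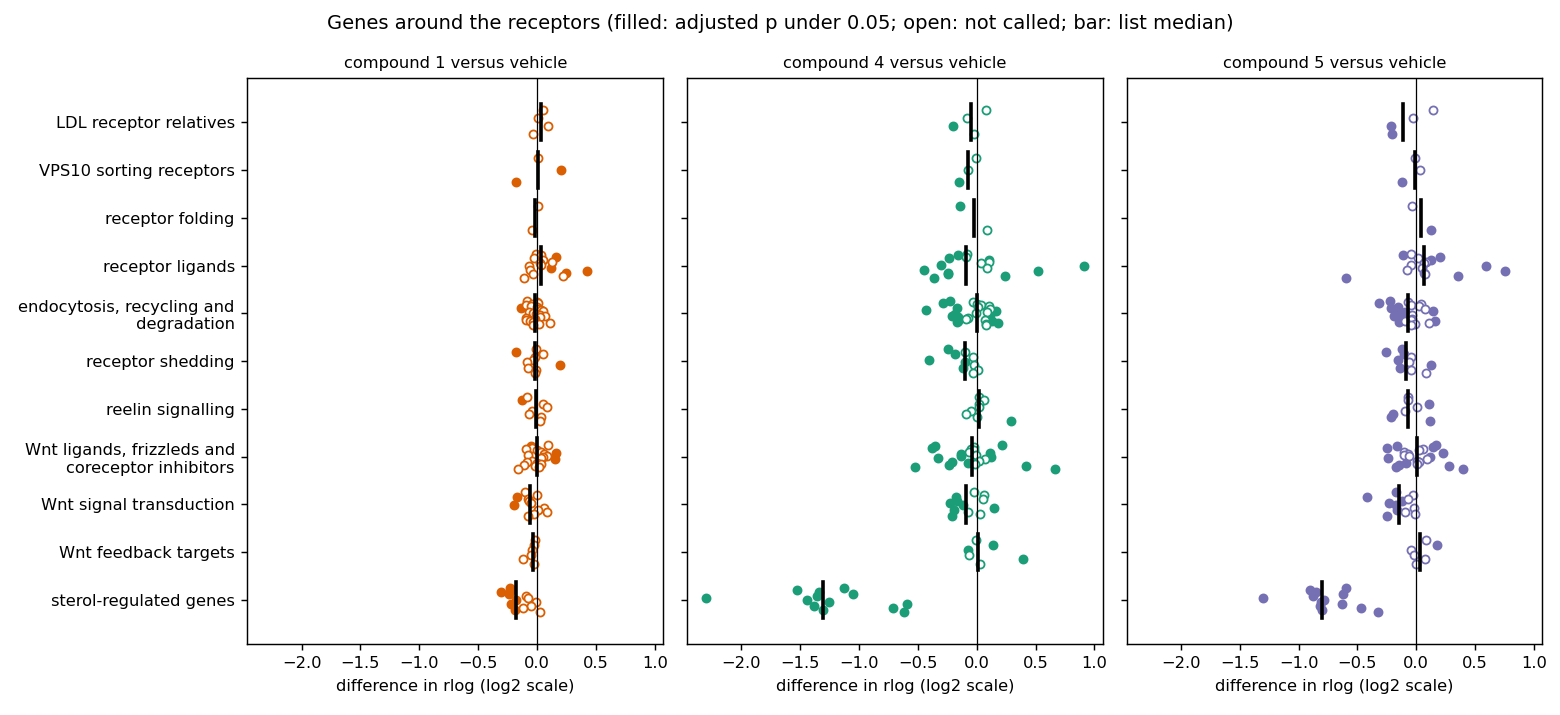
Differences from vehicle in rlog (log2 scale, horizontal axis) of the tested genes in 11 lists around the receptors, with 1 point per gene, filled where the adjusted p was under 0.05, and a bar at each list median. Apart from the sterol-regulated genes, with medians of -1.30 and -0.80 with compounds 4 and 5, the list median of largest size is -0.145. It belongs to the Wnt signal transduction genes with compound 5.

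Reads of overlapping genes could not be separated, because the sources used here do not state the strand setting of the counting. STAT6, on the opposite strand, shares 59 exon bases with LRP1 and had differences of 0.050, -0.0072 and -0.033 from vehicle with compounds 1, 4 and 5. VLDLR-AS1 shares 738 exon bases with VLDLR at a vehicle mean of 4.44, against 10.16 for VLDLR, and rose by 0.10 with compound 1 (limma adjusted p = 0.0147). AL606760.1 shares 346 exon bases with LRP8, at a mean of 3.70 over the 12 libraries.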

How the data were processed

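Poly(A) RNA of 12 cultures, labelled as independent biological replicates, was sequenced in paired-end reads per the labels' protocols. The deposited values are rlog values on the log2 scale, which the authors made from gene counts; the submitters' processing notes name STAR 2.7.10a, DESeq2 1.30.1 and GRCh38. The sources used here do not state the counting tool, annotation, strand setting or filters. Depth is unknown, so no counting interval or limit was computed.

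Members and lists were chosen with earlier results of these data known. Symbols were matched by Ensembl ID without its version. Coordinates, exon lengths (merged exons) and overlaps came from GENCODE 29 on GRCh38, and promoters from RefSeq on GRCh38.p14. Testing covered the 15524 of 62757 rows whose mean reached 3, with limma 3.58.1 in R 4.3.3: 1 mean per group over all 12 libraries, moderated variances with a mean trend, and Benjamini-Hochberg adjustment over all genes of each comparison. The median residual SD was 0.0468 on 8 degrees of freedom. SDs and SEs of weakly expressed genes are shrunk with the values. The fit was tested on simulated data of independent normal values. These hold no rlog shrinkage and no library effects, so the fit was not tested under those. Named list genes were drawn from up to 4 per list with the largest called difference from vehicle, and not all of these are named in the text. Others were chosen after their values were seen (RELN, DAB1, AXIN2, LRP5L, RBFOX3, the markers given by level and the antisense partners). A ligand gene that the rule names is not reported here. Promoters were printed for LRP1, LRP8 and LRP10 only, and LRP6 and LRP12 had no sequence in the promoter reference used. Replicate numbers were tried as a block. Figures used Python 3.11.15 and matplotlib 3.10.9.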

Additional observations from a re-analysis of the deposited data

How the results depend on the processing

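Of 16 called differences of members over the 6 comparisons, each kept its direction in all 23 alternatives, while calls were lost in some. The NEAT1 and MALAT1 covariate ended 7 calls and left 2 members called with compound 1, 0 with compound 4 and 0 with compound 5 against vehicle; it called 610, 4058 and 2268 genes, against 1688, 6300 and 5443 without it. Against vehicle with compound 1, where 1 member was called, 3 were called with only the 2 groups compared, 3 with library weights, 2 with robust eBayes and 2 with length and GC trends removed. Genes called in these settings were 2005, 2734, 1696 and 1851, and 800 with no filter, against 1688. Between compounds 5 and 1, 2 members rather than 4 were called with no filter, with robust eBayes and without a mean-variance trend. Genes called in these settings were 3556, 4668 and 4593, against 4666. Between compounds 5 and 4, 0 rather than 2 were called with no filter, 1 with only the 2 groups compared and 1 without the trend. Genes called there were 2425, 2973 and 3367, against 3422. Leaving out 1 library gave 1 to 3 members and 849 to 2363 genes for compound 1 against vehicle (849 without vehicle replicate 2, 978 without replicate 3 and 1043 without replicate 1 of compound 1, 1056 without vehicle replicate 1). For compound 5 against compound 1 it gave 2 to 4 members and 3610 to 4882 genes. For compound 5 against compound 4 it gave 0 to 2 members and 2426 to 4060 genes. With the replicate block, 3 members were called with compound 4 (6309 genes) and 3 with compound 5 (5484 genes), and it changed no call of a member. Same-numbered libraries had correlations of -0.215 to 0.249, and 6 of 12 were closest to their own number. With 3 libraries per group these values cannot settle whether the numbers pair the libraries. The cause of these shifts was not tested. The unknown depth limits what can be said of LRP5 and SORL1; without a filter SORL1 had differences from vehicle of at most 5.74e-04.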
